A study of Mus musculus with 10 samples.

Results

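The B cell receptor signalling genes described here are 35 named genes out of the 56893 in the deposited count table. They were chosen by name as receptor chains, coreceptors, inhibitory receptors, kinases and adaptors, and all 35 were found. The rule used no measured value. The gene names were nevertheless picked as B cell genes, so higher levels in B cells than in T cells are a description and not a finding of their own. Poly(A) RNA of primary mouse spleen cells was sequenced in 5 groups. These were T cells treated as mock, T cells given the guide sgRNA-P1, B cells treated as mock, and B cells with sgRNA-P1 or with sgRNA-P2. The guides direct CRISPR interference, in which a Cas9 without cutting activity blocks a promoter, to the P1 or the P2 promoter of Pou2f1. That gene encodes Oct-1, a transcription factor that binds the octamer motif in DNA. Not given in the sources used here were what the mock treatment held, how guided cells were selected, the strain and age of the mice, and whether groups came from separate animals.

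The B cell receptor is a membrane immunoglobulin held by a pair of signalling chains, CD79A and CD79B. When antigen binds, kinases of the Src family phosphorylate these chains, SYK docks on them, and the adaptor BLNK brings BTK and phospholipase C gamma 2 together. Lipid kinases, exchange factors, protein kinase C beta and the BCL10 and MALT1 proteins carry the signal on, while receptors such as CD22 and Fc gamma receptor IIB recruit the phosphatases SHP-1 and SHIP1, which dampen it.

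Each group has a pair of columns in the table that differed by less than sampling noise. They were therefore summed and count as 1 sample, with 28118839 to 71858511 reads per group. With 1 library per group there is no replicate check on any comparison, and none carries a p-value. Levels are in CPM (counts scaled to library size), brackets hold 95% counting intervals, and differences are log2 ratios. Intervals cover counting error only and say nothing of the spread between mice or cultures. The targeted gene Pou2f1 stood at 138 CPM in mock T cells but 66.1 CPM under sgRNA-P1. In B cells it stood at 157 CPM in mock, 91.1 CPM with sgRNA-P1 and 86.5 CPM with sgRNA-P2. All 3 guide libraries thus lay below their mock library. Its T cell values are uncertain, because 18.1% of its exon bases overlap Cd247 on the opposite strand, a T cell gene at 314 CPM in mock T cells.

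Because Oct-1 binds the octamer, the promoters of the 35 genes were searched for its letters, ATGCAAAT, on both strands. RefSeq promoters on GRCm38.p6, each of 300 bases, were at hand for 30 of the 35 genes, 39 promoters in all. No promoter was matched for Blk, Cd79b, Lyn, Malt1 and Ms4a1. Among those 39, 2 held the octamer, those of Blnk and Prkcb, where 1.74% of all 32851 promoters did. The looser ATGNAAAT, which includes the octamer, was found at 1 more gene, Bcl10, and in 5.67% of all promoters. The 250 bases before the start of both octamer-holding genes are shown, with that of the receptor chain gene Cd79a beside them as one that holds no octamer. Letters run 5′ to 3′ on the strand of the gene and capitals mark the octamer, which Blnk carries as its reverse complement.
Blnk: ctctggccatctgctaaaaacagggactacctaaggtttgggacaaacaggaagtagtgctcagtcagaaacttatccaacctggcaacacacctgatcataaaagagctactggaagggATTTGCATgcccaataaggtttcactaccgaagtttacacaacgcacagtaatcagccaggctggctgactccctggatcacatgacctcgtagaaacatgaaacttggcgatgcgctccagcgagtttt
Prkcb: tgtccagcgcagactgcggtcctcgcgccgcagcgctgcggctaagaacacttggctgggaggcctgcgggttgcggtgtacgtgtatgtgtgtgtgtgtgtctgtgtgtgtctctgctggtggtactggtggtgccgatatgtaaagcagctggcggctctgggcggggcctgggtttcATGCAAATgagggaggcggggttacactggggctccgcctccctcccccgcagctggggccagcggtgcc
Cd79a: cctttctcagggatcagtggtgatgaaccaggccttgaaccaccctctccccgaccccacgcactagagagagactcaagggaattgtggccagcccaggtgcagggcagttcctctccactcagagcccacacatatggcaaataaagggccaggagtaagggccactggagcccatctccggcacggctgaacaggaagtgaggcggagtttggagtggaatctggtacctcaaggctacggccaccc
The windows are chr19:40994222-40994471 on the minus strand for Blnk, chr7:122288875-122289124 on the plus strand for Prkcb and chr7:24897247-24897496 on the plus strand for Cd79a. The octamer lay at positions -70 to -63 from the start in Prkcb and at -130 to -123 in Blnk. A match is a run of letters and not a bound site. The levels of Blnk and Prkcb with and without the guides are given below.

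**Figure D1:**
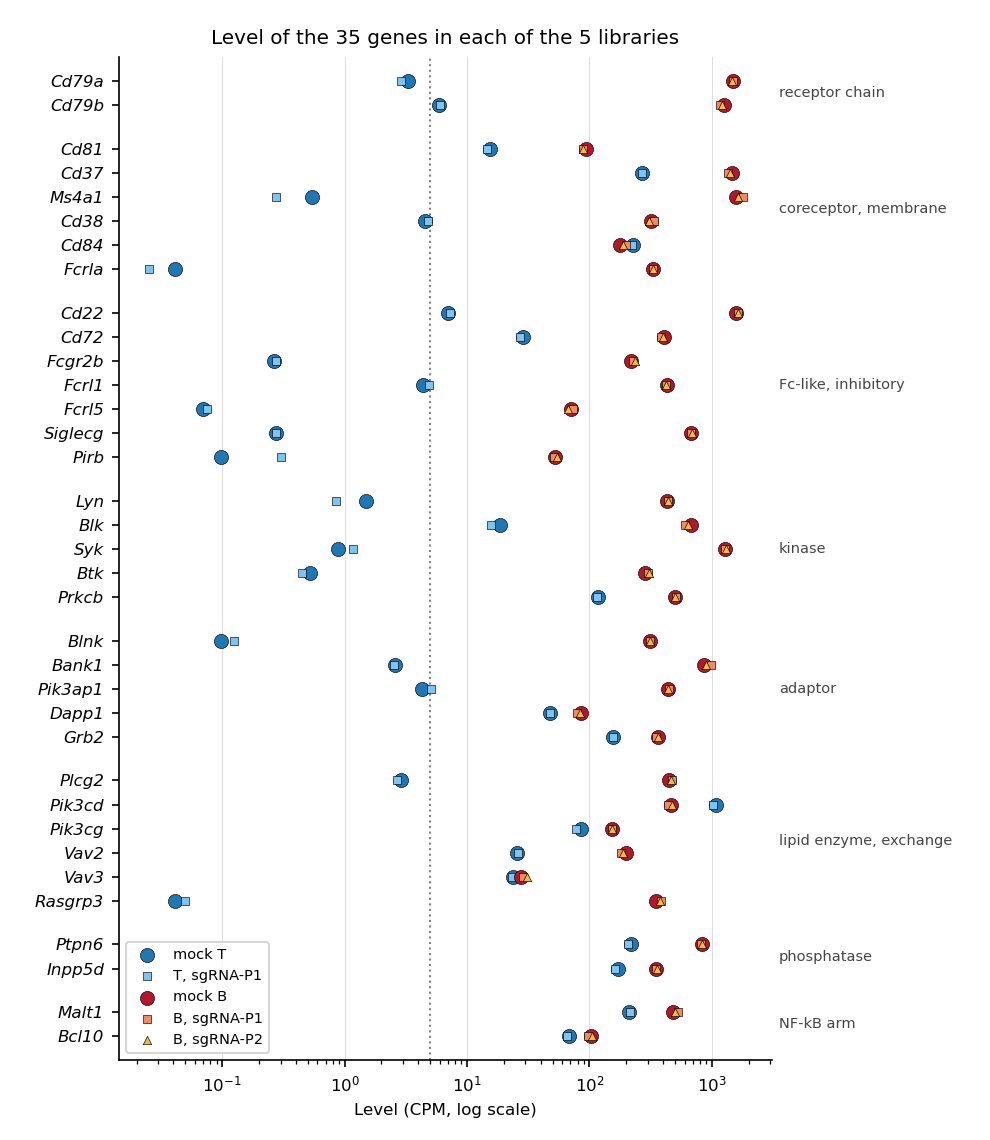
Level of each of the 35 genes (CPM, log axis) in the 5 libraries, grouped by role, with 1 point per library and a dotted line at 5 CPM. The 3 B cell libraries lie close together in every row, while the T cell libraries reach from 0.025 CPM for Fcrla to 1085 CPM for Pik3cd.

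Mock T and mock B cells were compared first, to show how the level of each step of the pathway differed between them. Together the 35 genes took 1.88% of all reads in mock B cells and 0.282% in mock T cells. All 35 stood at 27.5 CPM or more in mock B cells, and 18 stood at 5 CPM or more in mock T cells. By 1.5-fold or more, 32 of 35 were lower in mock T cells, against 18.4% of the 10804 genes at 5 CPM or more in either library. In the other direction 1 gene passed, against 18.6% of all genes. The 17 genes under 5 CPM in mock T cells entered only through their B cell level. Of the 18 at 5 CPM or more in both, 15 were lower in T cells, 1 was higher and 2 were less than 1.5-fold apart. The share of all genes at 5 CPM or more in both was not computed, so these counts have no background beside them. In a bulk library, fewer cells of a type and less RNA per cell cannot be told apart.

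The receptor chain genes were among the abundant ones in B cells. Cd79a, on chromosome 7 from 24596806 to 24601622 in the deposited coordinates, had 1486 CPM in mock B cells [1468 to 1505]. It had 1475 CPM with sgRNA-P1, 1461 CPM with sgRNA-P2. T cells had 3.31 CPM in mock and 2.88 CPM with sgRNA-P1. Its mock B level was 448-fold that of mock T cells [375 to 541]. Cd79b, on chromosome 11 from 106202167 to 106205588, had 1265 CPM in mock B cells [1248 to 1282], 1163 CPM with sgRNA-P1 and 1220 CPM with sgRNA-P2. In T cells it had 5.93 CPM in mock and 6.01 CPM with sgRNA-P1, so mock B was 213-fold higher than mock T [186 to 245]. Per kilobase of deposited exon length, the level in mock B cells was 1020 CPM per kb for Cd79a and 884 CPM per kb for Cd79b. These were the highest 2 levels per length of the 35 genes. The chains that bind antigen, which are no members, had 2972 CPM per kb for Ighm and 1553 CPM per kb for Ighd in mock B cells.

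Coreceptors and other membrane proteins ranged in T cells from a few reads to levels above those of B cells. Ms4a1, which encodes CD20, was at 1575 CPM in mock B, 1780 CPM with sgRNA-P1 and 1635 CPM with sgRNA-P2, against 0.541 and 0.275 CPM in mock and guided T cells. Its mock B level was 2912-fold that of mock T [1875 to 4802]. Fcrla, an intracellular Fc receptor-like protein gene, had 330 CPM in mock B cells and 3 reads in the whole mock T library, a ratio of 7933 [1854 to 110306]. Cd38, an enzyme of the cell surface that consumes NAD, had 318 CPM in mock B and 4.58 CPM in mock T cells. The tetraspanin genes were shared. Cd37 was 5.36-fold higher in mock B than in mock T cells, at 1452 against 271 CPM. Cd81 was 6.17-fold higher, at 94.5 against 15.3 CPM. Cd84, a receptor of the SLAM family, was higher in T cells, at 225 CPM in mock T and 178 CPM in mock B.

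The inhibitory and Fc receptor-like genes had a median log2 ratio of mock T to mock B of -8.87 over 7 genes. That median is the value of Pirb, with 7 reads in mock T cells, and its interval of -11.12 to -7.62 also holds the medians of the receptor chains (-8.27) and the kinases (-8.16). The median was -6.61 over all 35 members and 0.02 over all genes tested. Siglecg, a sialic acid receptor that restrains calcium signals, had 679 CPM in mock B and 0.277 CPM in mock T cells. Fcgr2b, the inhibitory Fc receptor, had 219 and 0.263 CPM. Fcrl5 had 71.4 and 0.0693 CPM, and Pirb, a receptor for class I molecules, had 51.9 and 0.0971 CPM. Pirb has near-identical relatives in the Pira family, so its count is uncertain. Cd22, the sialic acid receptor that recruits SHP-1, had 1588 CPM in mock B and 6.93 CPM in mock T cells, a ratio of 229 [202 to 260]. Fcrl1, a Fc receptor-like gene of B cells, had 429 and 4.38 CPM. Cd72, an inhibitory lectin, had 409 CPM in mock B and 28.4 CPM in mock T cells. Its T cell value is uncertain, because 41.6% of its exon bases overlap Tesk1 on the opposite strand, which stood at 21.5 CPM in mock T and 25.8 CPM in mock B cells.

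Kinases and adaptors of the first steps were 36.2-fold (Blk) or more higher in mock B cells, with 3 exceptions. Syk had 1274 CPM in mock B and 0.887 CPM in mock T cells, a ratio of 1435 [1017 to 2099]. Btk had 285 and 0.527 CPM, and Lyn 431 and 1.5 CPM. Blk, a Src family kinase, kept a measurable level in T cells, at 18.6 CPM in mock T [17.2 to 20] against 673 CPM in mock B. Among adaptors, Blnk had 314 CPM in mock B and 7 reads in mock T, a ratio of 3231 [1188 to 13390]. Bank1, a scaffold that binds LYN, had 869 and 2.61 CPM, and Pik3ap1, the adaptor BCAP for PI3 kinase, had 439 and 4.28 CPM. The exceptions were Prkcb at 497 and 118 CPM, Grb2 at 364 and 155 CPM, and Dapp1 at 85.7 and 47.7 CPM, in mock B and mock T cells in that order. These encode protein kinase C beta, a general adaptor to the Ras pathway and a PI3 kinase effector.

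Downstream genes were more evenly shared, with median log2 ratios of mock T to mock B of -1.89 for lipid enzymes and exchange factors, -1.48 for phosphatases and -0.90 for the NF-kB arm. Rasgrp3, a Ras exchange factor, had 352 CPM in mock B cells and 3 reads in mock T cells, a ratio of 8474 [1980 to 117824]. Plcg2 had 449 CPM in mock B and 2.9 CPM in mock T cells. Pik3cd, the catalytic PI3 kinase subunit delta, went the other way, at 1085 CPM in mock T against 465 CPM in mock B cells. Its mock B level was 0.429 of the mock T level [0.418 to 0.439], and it was the gene that passed 1.5-fold toward T cells. The related subunit gene Pik3cg had 85.1 CPM in mock T and 152 CPM in mock B cells. Of the Vav family of exchange factors, Vav2 had 25.8 and 199 CPM, and Vav3 had 24 and 27.5 CPM. The phosphatase genes Ptpn6 (SHP-1) and Inpp5d (SHIP1) were 3.81-fold and 2.04-fold higher in mock B cells. The NF-kB arm was also shared, with Malt1 at 481 against 212 CPM and Bcl10 at 104 against 67.6 CPM.

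Ordered by the mock T level as a percent of the mock B level, the genes ran from Rasgrp3 (0.0118%), Fcrla (0.0126%) and Blnk (0.0309%) to Vav3 (87.3%), Cd84 (127%) and Pik3cd (233%). Neighbours at the low end, with 3 to 7 reads in mock T cells, have overlapping intervals. The share was under 0.1% in 7 genes, 0.1 to 1% in 10, 1 to 10% in 4, 10 to 100% in 12 and over 100% in 2. By a size of 100-fold, chosen after the values were seen, 17 of 35 were lower in mock T cells, against 2.92% of all genes tested. For 12 other B cell markers the same share ran from 0.0132% (Iglc3) to 3.36% (Pou2af1) with a median of 0.0584%. They summed to 31.6 CPM in mock T and 34.6 CPM in guided T cells, against 11806 CPM in mock B cells. All 12 had reads in mock T cells. Ighm, outside these 12, stood at 341 CPM in mock T cells, 6.09% of its mock B level. The shares of Cd79b (0.469%), Cd22 (0.437%), Cd38 (1.44%) and Blk (2.76%) lay between those of the markers Vpreb3 (0.389%) and Pou2af1. The part of B cells left in the T cell libraries in these values was not tested.

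**Figure D2:**
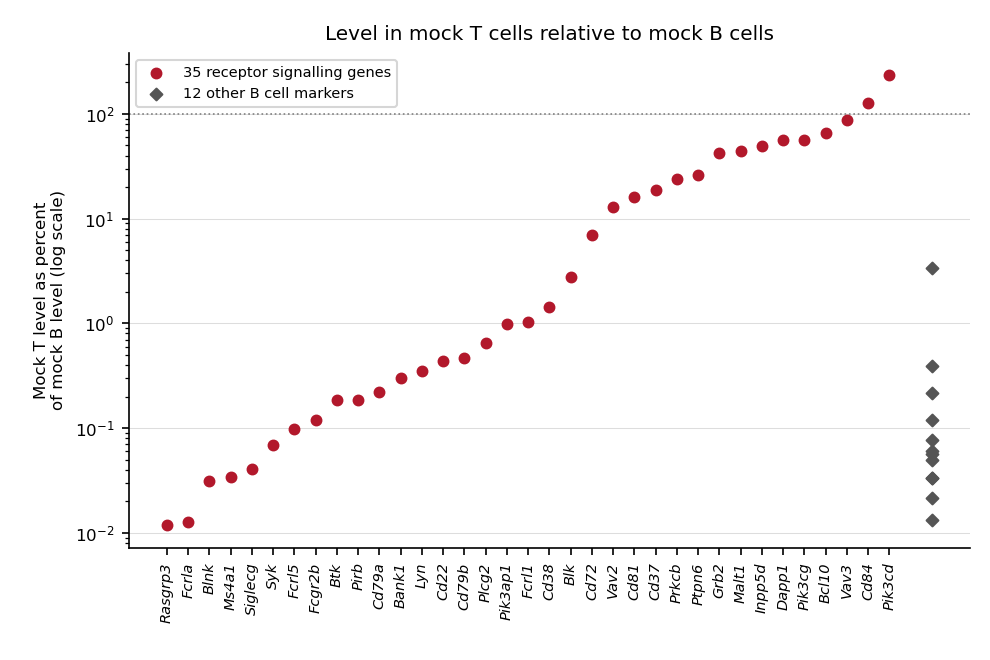
Level in mock T cells as a percent of the level in mock B cells (log axis) for each of the 35 genes in rising order, with 12 other B cell markers as grey diamonds and a dotted line at 100%. The genes span 0.0118% to 233%, and 17 of them lie under 1%, as do 11 of the 12 markers.

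Markers of other cell types were read in the same libraries. Of 13 macrophage and monocyte markers, 2 reached 5 CPM in mock B cells (Cd68 and Adgre1), with a sum of 23.8 CPM, and 2 in mock T cells (Ly6c2 and Cd68), with a sum of 75.1 CPM. Of the mock T sum, 65.4 CPM came from Ly6c2. In mock B cells Csf1r was at 1.03 CPM, Lyz2 at 2.13 CPM, and Fcgr1 had no read. The 8 granulocyte markers summed to 0.857 CPM in mock B and 0.416 CPM in mock T cells. The 15 T cell markers summed to 8123 CPM in mock T and 8.51 CPM in mock B cells, where Trbc2 had no read. Natural killer markers summed to 192 CPM in mock T and 7.98 CPM in mock B cells, dendritic cell markers to 89.6 and 31.9 CPM, plasma cell markers to 104 and 654 CPM, and red cell and platelet markers to 6.14 and 3.28 CPM. Of the dendritic cell sum in mock T cells, 44.9 CPM came from Ccr9 and 38.9 CPM from Bst2, while Flt3 stood at 0.208 CPM. The natural killer sum there held 51.2 CPM from Klrd1 and 32.5 CPM from Eomes, while Klrb1c stood at 3.13 CPM. Of the plasma cell sum in mock B cells, 429 CPM came from Irf4 and 106 CPM from Jchain, while Sdc1 stood at 19.7 CPM and Tnfrsf17 had 1 read. Single macrophage and monocyte markers stood at 0 to 7.15 CPM in mock B cells, where Fcgr2b, Pirb, Lyn and Syk had 51.9 to 1274 CPM. The part of other cell types in these levels was not tested.

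Antigen receptors of T cells use relatives of many of these proteins, and levels per kilobase were set side by side for 10 such pairs. For Syk and its relative Zap70, mock B cells had 136 and 0.613 CPM per kb and mock T cells 0.0948 and 83.7 CPM per kb. Blnk and Lcp2 had 52.4 and 0.219 CPM per kb in mock B, and 0.0162 and 74.7 CPM per kb in mock T cells. In both pairs the member made up 99.6% of the pair's summed level in mock B cells and at most 0.113% in mock T cells. Plcg2 made up 93.8% of the sum with Plcg1 in mock B and 1.12% in mock T cells. Among Src family kinases, Blk made up 94.1% of the sum with Lck in mock B and 2.45% in mock T cells. Lyn made up 86.9% of the sum with Fyn in mock B and 0.33% in mock T cells.

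In the remaining pairs the exchange was less complete or absent. Rasgrp3 and Rasgrp1 were level in mock B cells, at 60.4 and 55.2 CPM per kb, while mock T cells had 0.00712 and 99 CPM per kb. Prkcb and Prkcq had 64.9 and 0.0626 CPM per kb in mock B cells, and 15.5 and 63 CPM per kb in mock T cells. Prkcb thus made up 99.9% of the sum with Prkcq in mock B cells and still 19.7% in mock T cells. Vav1 was above Vav2 and Vav3 in both cell types, at 63.3 CPM per kb in mock B cells against 28.8 and 4.57 CPM per kb. In mock T cells Vav1 had 58.3 CPM per kb against 3.73 and 3.99 CPM per kb. Grb2 and Grap2 had 125 and 63.6 CPM per kb in mock B cells, and 53.2 and 131 CPM per kb in mock T cells. Deposited lengths cover every exon of a gene, whether or not these cells use it.

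**Figure D3:**
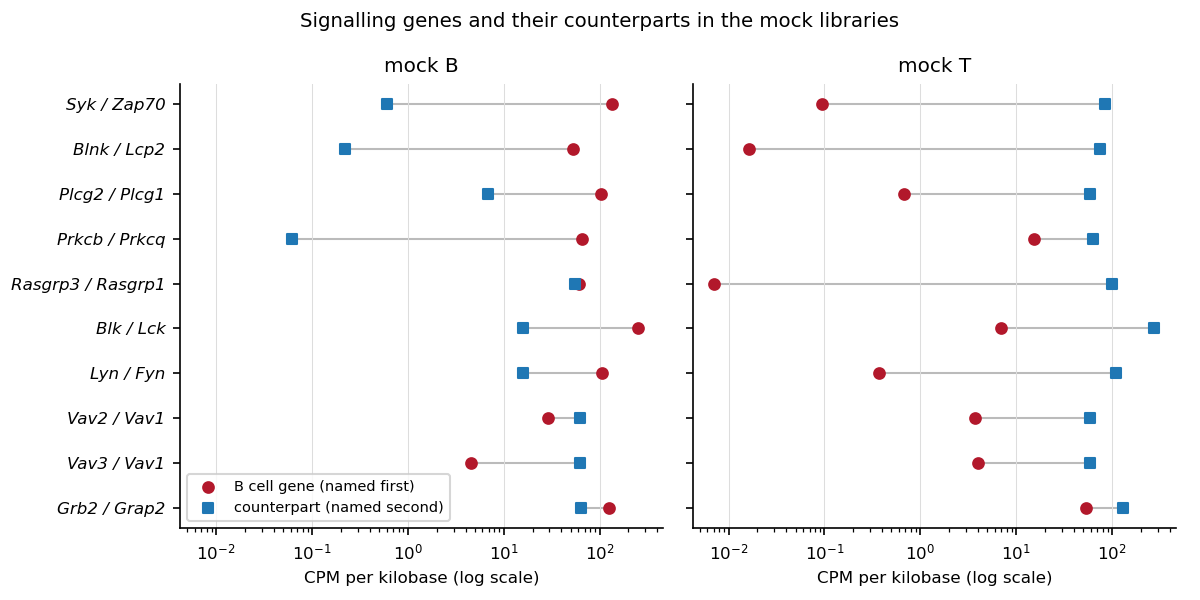
Level per kilobase (CPM per kb, log axis) of 10 genes of the B cell pathway (red circles) and of their counterparts (blue squares) in mock B and mock T cells, 1 pair per row. Syk and Blnk trade places with their counterparts between the panels, while Rasgrp3 and Rasgrp1 coincide in mock B cells at 60.4 and 55.2 CPM per kb.

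Other genes of the pathway, a list of 58, were less divided between the cell types. Of the 57 at 5 CPM or more, 20 were lower and 9 higher in mock T cells by 1.5-fold, against 18.4% and 18.6% of all genes. The median log2 ratio of the 57 was -0.09. Among those lower in T cells were the complement receptor gene Cr2, at 1314 CPM in mock B and 0.749 CPM in mock T, Ighd at 2951 and 6.45 CPM, and the adaptor gene Themis2 at 201 and 0.943 CPM. Higher in T cells were Cd5, an inhibitory receptor of T cells (467 against 2.07 CPM), and Orai1, the pore of store-operated calcium entry (27.8 against 11.1 CPM). The receptor gene Lair1 had 11.7 against 4.82 CPM and the Ras regulator gene Rasal3 had 659 against 290 CPM.

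B cells with sgRNA-P1 were then compared with mock B cells, as the first of the guide comparisons. The summed level of the 35 genes was 18783 CPM in mock, 18932 CPM with sgRNA-P1 and 18887 CPM with sgRNA-P2. The 12 other B cell markers summed to 11806, 12018 and 11886 CPM and the 15 T cell markers to 8.51, 9.38 and 10.1 CPM in the same order. No gene of the 35 was 1.5-fold apart, against 0.735% of the 10062 genes tested. Of the 35, 31 lay within 1.1-fold, as did 65.1% of all genes and 70.9% of genes at 20 CPM or more. By 1.1-fold with an interval that excludes 0, 3 were higher and 1 was lower, where 12.2% of all genes were higher and 11.2% lower, 23.3% in all. The median log2 ratio was 0.00 over the 35 genes and -0.01 over all genes. The log2 ratios of the 35 ran from -0.15 to 0.18. Without a minimum fold, the counting interval lay above 0 in 10 of 35 genes and below 0 in 7, against 17.7% and 15.6% of all genes.

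The genes past 1.1-fold came from different steps. Ms4a1 was at 1780 CPM against 1575 CPM in mock, a log2 ratio of 0.18 [0.15 to 0.20]. Bank1 was at 978 CPM against 869 CPM (0.17 [0.14 to 0.20]), and Cd84 at 197 CPM against 178 CPM (0.15 [0.08 to 0.21]). Blk was lower, at 606 CPM against 673 CPM (-0.15 [-0.19 to -0.12]). The sgRNA-P2 library had 1635 CPM for Ms4a1, 891 CPM for Bank1, 188 CPM for Cd84 and 637 CPM for Blk. The 4 genes were picked by the distance of sgRNA-P1 from the same mock library, so a value between both is no separate evidence. The receptor chain genes differed little, with log2 ratios of -0.01 for Cd79a [-0.03 to 0.01] and -0.12 for Cd79b [-0.15 to -0.10]. For the genes whose promoters hold the octamer, the ratios were 0.00 for Blnk [-0.05 to 0.06] and 0.05 for Prkcb [0.01 to 0.09]. The tyrosine kinase genes Syk (-0.01) and Lyn (0.02) and the phosphatase genes Ptpn6 (-0.02) and Inpp5d (-0.01) were also close to mock. Their intervals held 0, while that of the tyrosine kinase gene Btk (0.09 [0.04 to 0.14]) lay above it.

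The log2 ratios of this comparison moved with the GC content of the transcripts. Across the 35 genes Spearman's rank correlation between ratio and GC content was -0.66, and across 9703 genes it was -0.50. These genes share the same 2 libraries and are not independent replicates. The 35 genes ran from 35.8% GC in Malt1 to 57.3% in Cd37. After a loess trend on GC content and length was subtracted, 34 of 35 lay within 1.1-fold. So did 7104 of 9703 genes, and 5640 of 7020 genes at 20 CPM or more. The ratio was then 0.05 for Ms4a1, 0.01 for Bank1, -0.003 for Cd84 and -0.10 for Blk. The gene of the 35 left outside was Dapp1, at -0.15 after the trend and -0.11 [-0.21 to -0.01] before it. It is named after its values were seen.

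**Figure D4:**
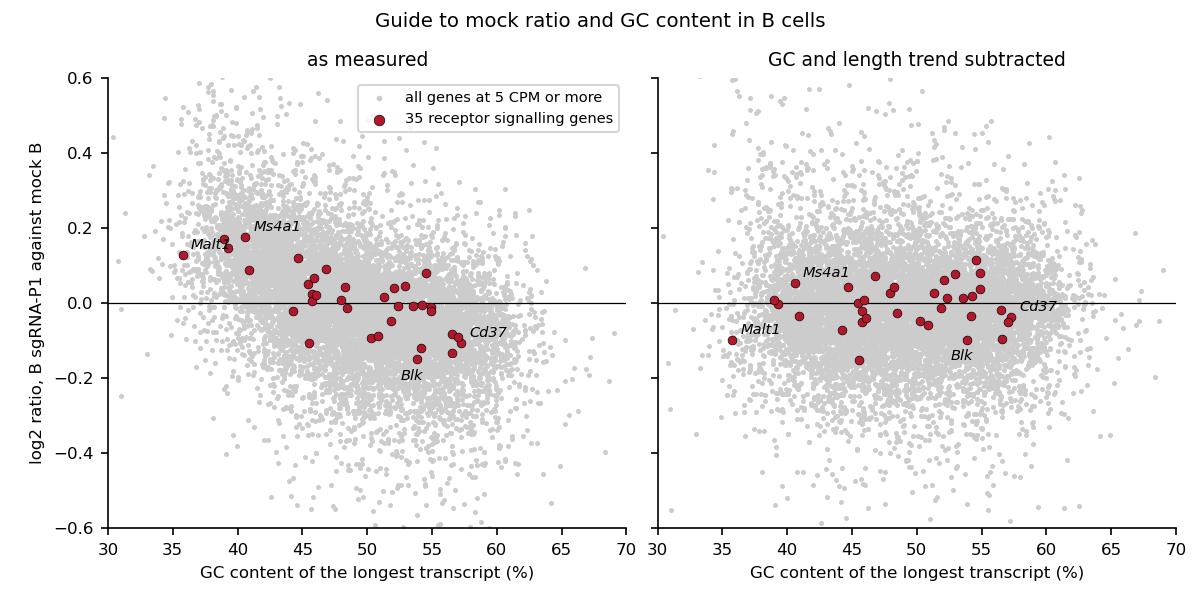
Log2 ratio of the sgRNA-P1 library to mock in B cells (y axis, drawn from -0.6 to 0.6, with genes beyond it not shown) against GC content of the longest transcript (x axis, percent) as measured and after a GC and length trend was subtracted. Grey points are all genes at 5 CPM or more and red points the 35 genes, which slope downward on the left (rank correlation of -0.66) and lie flat on the right (0.11).

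**Figure D5:**
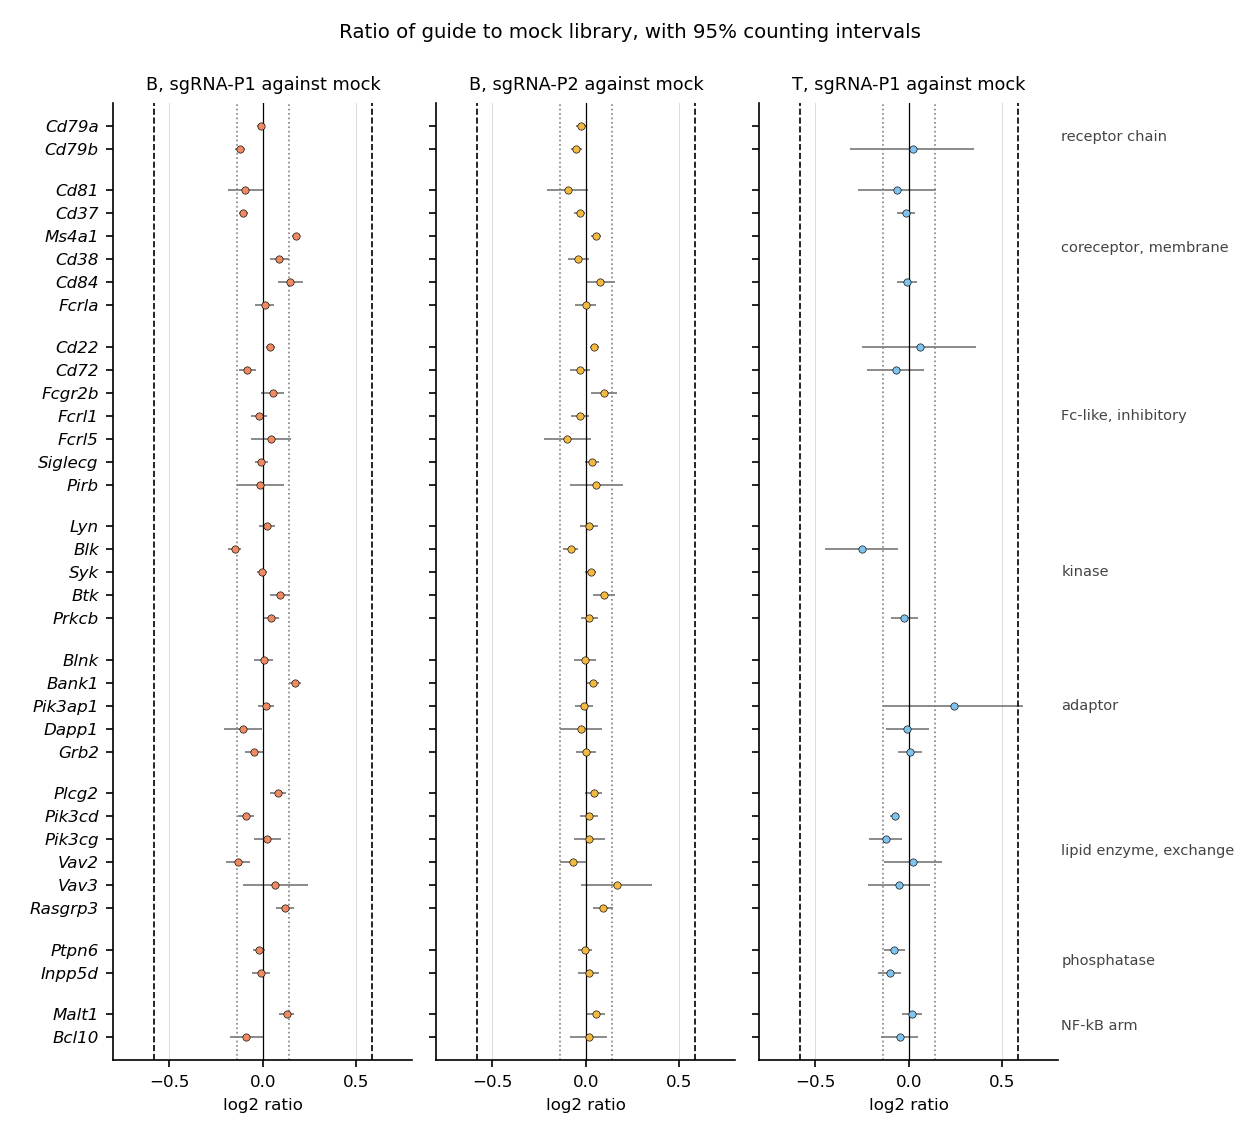
Log2 ratio of each guide library to its mock library for the 35 genes, with 95% counting intervals, dotted lines at 1.1-fold and dashed lines at 1.5-fold. No point passes a dashed line. In T cells the 19 genes at 5 CPM or more are drawn.

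As measured, B cells with sgRNA-P2 were closer to mock than those with sgRNA-P1, in the 35 genes as in all genes. The comparison uses the same mock library, so it is not independent of the first. No gene of the 35 was 1.5-fold apart, against 0.278% of 10061 genes, and none passed 1.1-fold with an interval that excludes 0, against 6.55%. Without a minimum fold, the counting interval lay above 0 in 8 of 35 genes and below 0 in 3. Among all 10061 genes it lay above 0 in 525 and below 0 in 638, and among 7184 at 20 CPM or more in 437 and 532. Of the 35, 34 lay within 1.1-fold, as did 79.9% of all genes and 89.1% of those at 20 CPM or more. The exception was Vav3, at 30.8 CPM against 27.5 CPM, with a log2 ratio of 0.16 [-0.03 to 0.36]. The median over the 35 was 0.01 and over all genes -0.00. Cd79a had -0.02 [-0.05 to 0.00] and Cd79b -0.05 [-0.08 to -0.02]. Blnk had -0.01 [-0.06 to 0.05] and Prkcb 0.02 [-0.03 to 0.06]. Fcgr2b was 234 CPM against 219 CPM (0.10 [0.03 to 0.16]) and Btk 304 CPM against 285 CPM (0.10 [0.04 to 0.16]). Spearman's rank correlation with GC content was -0.39 across the 35 genes and -0.17 across 9704 genes. With the GC and length trend subtracted, 34 of 35 lay within 1.1-fold of mock for either guide. With sgRNA-P2 so did 7866 of 9704 genes, and 6312 of 6994 genes at 20 CPM or more.

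Both guides were set against each other in B cells without the mock library. No gene of the 35 was 1.5-fold apart, against 0.418% of 10059 genes. By 1.1-fold with an interval that excludes 0, 1 was higher with sgRNA-P1 and none lower, against 8.8% and 5.61% of all genes. That gene was Fcrl5, at 73.5 CPM with sgRNA-P1 and 66.6 CPM with sgRNA-P2 (0.14 [0.03 to 0.26]), with mock at 71.4 CPM. Bank1 (0.13 [0.10 to 0.17]), Cd38 (0.13 [0.07 to 0.18]) and Ms4a1 (0.12 [0.10 to 0.15]) stood just inside 1.1-fold. With the GC and length trend subtracted they stood at 0.0003, 0.03 and 0.02, and Fcrl5 at 0.14. Pik3cd had -0.11 [-0.15 to -0.06]. Pou2f1 itself differed by 0.07 [-0.03 to 0.18], which was not detectable at this depth. The rank correlation with GC content was -0.51 across the 35 genes and -0.45 across 9700 genes.

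In T cells, sgRNA-P1 was compared with mock for the 19 members at 5 CPM or more. None was 1.5-fold apart, against 0.11% of 10007 genes. Within 1.1-fold lay 17 of 19, as did 86.8% of all genes and 94.1% of genes at 20 CPM or more. By 1.1-fold with an interval that excludes 0, none was higher and 1 was lower, against 2.2% and 3.2% of all genes. That gene was Blk, at 15.6 CPM against 18.6 CPM in mock, a log2 ratio of -0.25 [-0.45 to -0.06]. Pik3ap1 entered only through the guide library and had 5.06 against 4.28 CPM (0.24 [-0.14 to 0.61]). Without a minimum fold, the interval lay below 0 in 5 of 19 genes and above 0 in none, against 1040 and 437 of 10007 genes. Besides Blk, those below 0 were the PI3 kinase genes Pik3cd (-0.08 [-0.10 to -0.05]) and Pik3cg (-0.12 [-0.21 to -0.04]). The others were the phosphatase genes Ptpn6 (-0.08 [-0.13 to -0.02]) and Inpp5d (-0.10 [-0.16 to -0.04]). The rank correlation with GC content was -0.16 across the 19 genes and -0.23 across 9666 genes. With the GC and length trend subtracted, Blk was at -0.24, Pik3cd at -0.03, Pik3cg at -0.13, Ptpn6 at -0.06 and Inpp5d at -0.08. The median over the 19 genes was -0.02 and over all genes -0.02.

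The other 16 members had few reads in T cells, so their ratios have wide intervals. Lyn had 108 reads in mock and 34 reads in the guide library, which is 1.5 and 0.851 CPM (-0.79 [-1.69 to -0.01]). Ms4a1 had 39 and 11 reads (-0.88 [-2.66 to 0.44]) and Pirb had 7 and 12 reads (1.55 [-0.51 to 4.05]). These were the 3 genes more than 1.5-fold apart when no minimum level was set. Cd79a, at 239 and 115 reads, had -0.20 [-0.68 to 0.26].

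The effects of sgRNA-P1 in T and B cells were set against each other for the 19 members at 5 CPM or more in both. None differed by 1.5-fold, against 1.31% of 9139 genes. The difference, T effect minus B effect, ran from -0.15 to 0.23 with a median of 0.02. Its counting interval lay below 0 in 4 of 19 genes and above 0 in 1, against 17.2% and 11% of all genes, so these counts are near the background. Below 0 were Pik3cg (-0.15 [-0.26 to -0.03]), Cd84 (-0.15 [-0.24 to -0.07]), Malt1 (-0.11 [-0.18 to -0.04]) and Inpp5d (-0.09 [-0.17 to -0.02]). Above 0 was Cd37 (0.09 [0.04 to 0.15]). With the GC and length trend subtracted, the difference turned to 0.09 for Malt1 and was -0.03 for Cd84, -0.09 for Pik3cg, -0.09 for Inpp5d and 0.05 for Cd37. Blk was lower with the guide in both cell types, and its difference was -0.10 [-0.30 to 0.10].

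Among the other genes of the pathway, none was 1.5-fold apart in any guide comparison, against 0.11% to 0.735% of all genes. With sgRNA-P1 in B cells, 3 of 56 were higher by 1.1-fold with an interval that excludes 0, against 12.2% of all genes. These were Ppp3r1, the regulatory subunit of calcineurin (0.23 [0.14 to 0.31]), the Ras exchange factor gene Sos1 (0.19 [0.08 to 0.30]) and Nfatc3, a calcium-regulated factor (0.15 [0.10 to 0.20]). With the GC and length trend subtracted all 3 lay within 1.1-fold, at 0.12, 0.03 and 0.09. With sgRNA-P2, none of 55 passed, against 6.55% of all genes. Between the guides 3 of 56 were higher with sgRNA-P1 and 1 lower, against 8.8% and 5.61% of all genes. Higher were Ppp3cb (0.20), Ppp3r1 (0.17) and Sos1 (0.15), and lower was Inppl1 (-0.20). With the trend subtracted these were 0.08, 0.09, 0.03 and -0.16, and Inppl1 alone was past 1.1-fold. In T cells none of 53 was higher and 3 were lower, against 2.2% and 3.2% of all genes. Lower were Inppl1 (-0.23 [-0.45 to -0.01]), the kinase gene Map2k2 (-0.20 [-0.29 to -0.10]) and the kinase gene Mapk3 (-0.16 [-0.28 to -0.03]). With the trend subtracted Mapk3 was at -0.13, within 1.1-fold, while Inppl1 (-0.19) and Map2k2 (-0.16) were not.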

How the data were processed

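The authors deposited 1 table of raw read counts per gene with 10 columns. The tools named are HISAT2 (an aligner) and featureCounts (a read counter), with builds mm39 and hg38, per the submitters' processing notes. Not given in the sources used here were tool versions, annotation release, strand setting and how reads with several matches were handled. Coordinates of genes are those of the deposited table, and its column of gene lengths gave levels per kilobase.

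The columns of each group were compared over genes with 20 or more reads. The mean chi-square per gene was 0.00231 to 0.00283, less than sampling noise, and each pair was summed as 1 sample. Among genes with fewer than 10 reads, 72 to 74.8% of summed totals were odd, that is even once 1 read lost to rounding is added back. Exact intervals (Clopper-Pearson for ratios, Poisson for levels) were therefore computed on reads divided by 2. Intervals of the difference of 2 effects use a normal approximation to the same counts. Counts were scaled by TMM factors (edgeR 4.0.16, R 4.3.3). Log2 ratios were taken after adding 1 read to each count, among genes with 5 CPM or more in either library. Printed ratios of mock B to mock T and percent shares are CPM quotients without the added read, while fold calls use the log2 ratios. The ratios and intervals were tested on simulated counts, drawn from the levels of mock B cells with counting error only. That test cannot show how the intervals hold under variation between libraries or a GC trend. GC content came from the longest GENCODE M21 transcript, found for 35 of 35 genes. The trend was a loess fit with span 0.5.

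Members and lists were chosen with earlier results of these data known. Named genes were every member past 1.1-fold with an interval that excludes 0 (up to 8 per guide comparison), up to 4 other pathway genes per direction by the same rule, the receptor chains, the 3 members with the lowest and the 3 with the highest T cell share, and all counterparts, except items not reported here. Other genes named, such as members in the account by role, Ighm, Vav3, Dapp1 and single markers, were chosen after their values were seen. Alternatives tried were other scalings (DESeq2 1.42.0 size factors among them), filters, priors, single columns, a GC and length trend and other folds.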

Additional observations from a re-analysis of the deposited data

How the results depend on the processing

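Few reads limit the T cell values of the 17 genes under 5 CPM in mock T cells, where 3 reads are 0.0417 CPM. No paired analysis was possible because each group holds 1 library, divided into columns that carry no variation of their own. For the same reason, using either column alone left every count and median within its margin. Over all alternatives, 195 of 210 values of the members' counts and medians stayed within 1.5 times the count or within the counting interval, and 15 did not. The count past 1.1-fold between the guides in B cells, 1 as reported, was 0 with total reads, 0 with DESeq2 size factors and 4 with upper quartile scaling. Without a minimum level, 3 members were 1.5-fold apart in T cells, 2 passed 1.1-fold with an interval that excludes 0, and the effects of sgRNA-P1 in T and B cells differed by 1.5-fold in 3. Apart from Blk, which also passed with the minimum level, the genes concerned carried few reads. With a minimum of 20 CPM the T cell count past 1.1-fold was 0, because Blk is below that level. With the GC and length trend subtracted, 1 member passed 1.1-fold with sgRNA-P1 in B cells instead of 4, Cd84 there turned to -0.003, and the difference of effects of Malt1 turned from -0.11 to 0.087. With a fold of 1.1 in place of 1.5, regardless of interval, 2 members were higher in mock T than in mock B cells, 2 passed in T cells with the guide, 4 with sgRNA-P1 and 1 with sgRNA-P2 in B cells, 1 between the guides, and 5 in the difference of effects. With a fold of 1.2, 2 members were higher in mock T cells. Of 339 values of named genes, 18 moved beyond their counting interval and 2 changed sign.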
